A study of Mus musculus with 12 samples.

Results

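The 38 genes described here take part in the uptake, activation and mitochondrial oxidation of fatty acids, and they were taken by gene symbol from a list of that pathway, out of 46983 symbols in a nuclear RNA count table of adult mouse cardiomyocytes. All 38 were in the table and all 38 passed the filter on low counts, among 17715 genes that did. The nuclei came from tamoxifen-treated adult mice of the strain Yap5SA+/tg; Myh6-MCM (called YAP5SA) and from tamoxifen-treated adult Myh6-MCM mice (called control), with 2 libraries in each group. Both groups thus carry Myh6-MCM, a tamoxifen-inducible Cre recombinase under the promoter of Myh6, a myosin gene of heart muscle, and both received tamoxifen. Yap5SA encodes YAP, a co-activator of transcription held back by the Hippo pathway, with its inhibitory serines changed to alanine. A Myh6-driven Cre acts in heart muscle cells, so other cells in a sample need not carry active Yap5SA. RNA was taken from nuclei that bound to beads through PCM1, a protein used to select heart muscle nuclei.

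Fatty acids are the main fuel of the adult heart. They are freed from lipoproteins by lipoprotein lipase in the capillaries, cross the cell membrane with the help of CD36, are bound by FABP carriers and are joined to coenzyme A by acyl-CoA synthetases. The carnitine shuttle then moves them into the mitochondrion, where each turn of beta-oxidation removes an acetyl-CoA through a dehydrogenase, a hydratase, a second dehydrogenase and a thiolase. Nuclear receptors of the PPAR and ERR families and their coactivators of the PGC-1 family are known to drive transcription of this pathway in heart muscle.

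Total counts ran from 7850661 to 15012122 per library. Levels are in CPM, the usual library-scaled count, with totals adjusted by TMM. The 10 cardiomyocyte markers checked were detected in every library and summed to 24130 and 25750 CPM in YAP5SA nuclei, against 34040 and 70080 CPM in control nuclei, with a negative fold change in all 10. With edgeR 0 of the 10 passed the threshold and 5 had an unadjusted p under 0.05, all lower, and DESeq2 called 5 lower. Markers of other heart cells were detected too. The 13 macrophage markers summed to 1525 and 1832 CPM in YAP5SA nuclei against 934.2 and 628.2 CPM in control nuclei, with 6 past the threshold upward with edgeR and 11 with DESeq2. The 12 endothelial markers summed to 1268 and 1190 CPM in YAP5SA nuclei against 2458 and 1579 CPM in control nuclei, with Vwf and Robo4 past it downward. The 10 fibroblast markers summed to 6466 and 8045 CPM in YAP5SA nuclei against 8390 and 6760 CPM in control nuclei, with Lum past it upward. Of these 10 markers 4 had a positive fold change and 6 a negative one. At an unadjusted p under 0.05 with edgeR, 11 macrophage and 3 fibroblast markers were higher and 9 endothelial markers lower, with 0 the other way. Over all tested genes these shares were 12.7% higher and 10.9% lower. Past the threshold, edgeR called 3.12% of all tested genes higher and 0.999% lower. DESeq2 called 3.5% and 1.73% of all genes with any count. The part of such cells in the results was not tested, and fewer cells of a type and less RNA per cell cannot be told apart in bulk nuclear RNA. Whether the 2 libraries of a group came from different animals is not stated in the labels, and the p-values cover the spread between these libraries alone, which may be technical. Exon bases of 11 of the 38 genes lie opposite another gene on the other strand (Fabp3, Lipe, Acsl1, Crat, Acadvl, Etfdh, Echs1, Hadha, Acaa1a, Eci2 and Ucp2), and 3 share them on the same strand (Acsl3, Cpt1b and Etfb), so their counts may hold reads of the partner.

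Most fatty acid genes were lower in YAP5SA nuclei, by a modest amount, and 2 of them passed the test. Acacb, which makes the malonyl-CoA that restrains fatty acid entry into mitochondria, and Hadh, a dehydrogenase of beta-oxidation, fell by more than 2-fold. The test was edgeR's quasi-likelihood F test over all 17715 genes with Benjamini-Hochberg adjustment and a threshold of 0.05, and log2 fold changes are YAP5SA minus control. Of the 38 genes 0 rose and 2 fell, which is 5.26% lower, where the test called 3.12% of all genes higher and 0.999% lower. At an unadjusted p under 0.05, 17 of the 38 were lower (44.7%) and 0 higher, against 10.9% and 12.7% of all genes. The fold change was negative for 34 of the 38 (89.5%), against 54.3% of all genes, and the median log2 fold change was -0.59, against -0.06 over all tested genes. In 25 of the 38 (65.8%) both YAP5SA libraries lay below both control libraries, and in 1, Cpt1a, above both. The same pattern was seen in 28.3% and 28.1% of all genes. With 2 libraries against 2, an exact permutation test of a single value has 6 splits and cannot go below a two-sided p of 0.333, so none is given.

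**Figure D1:**
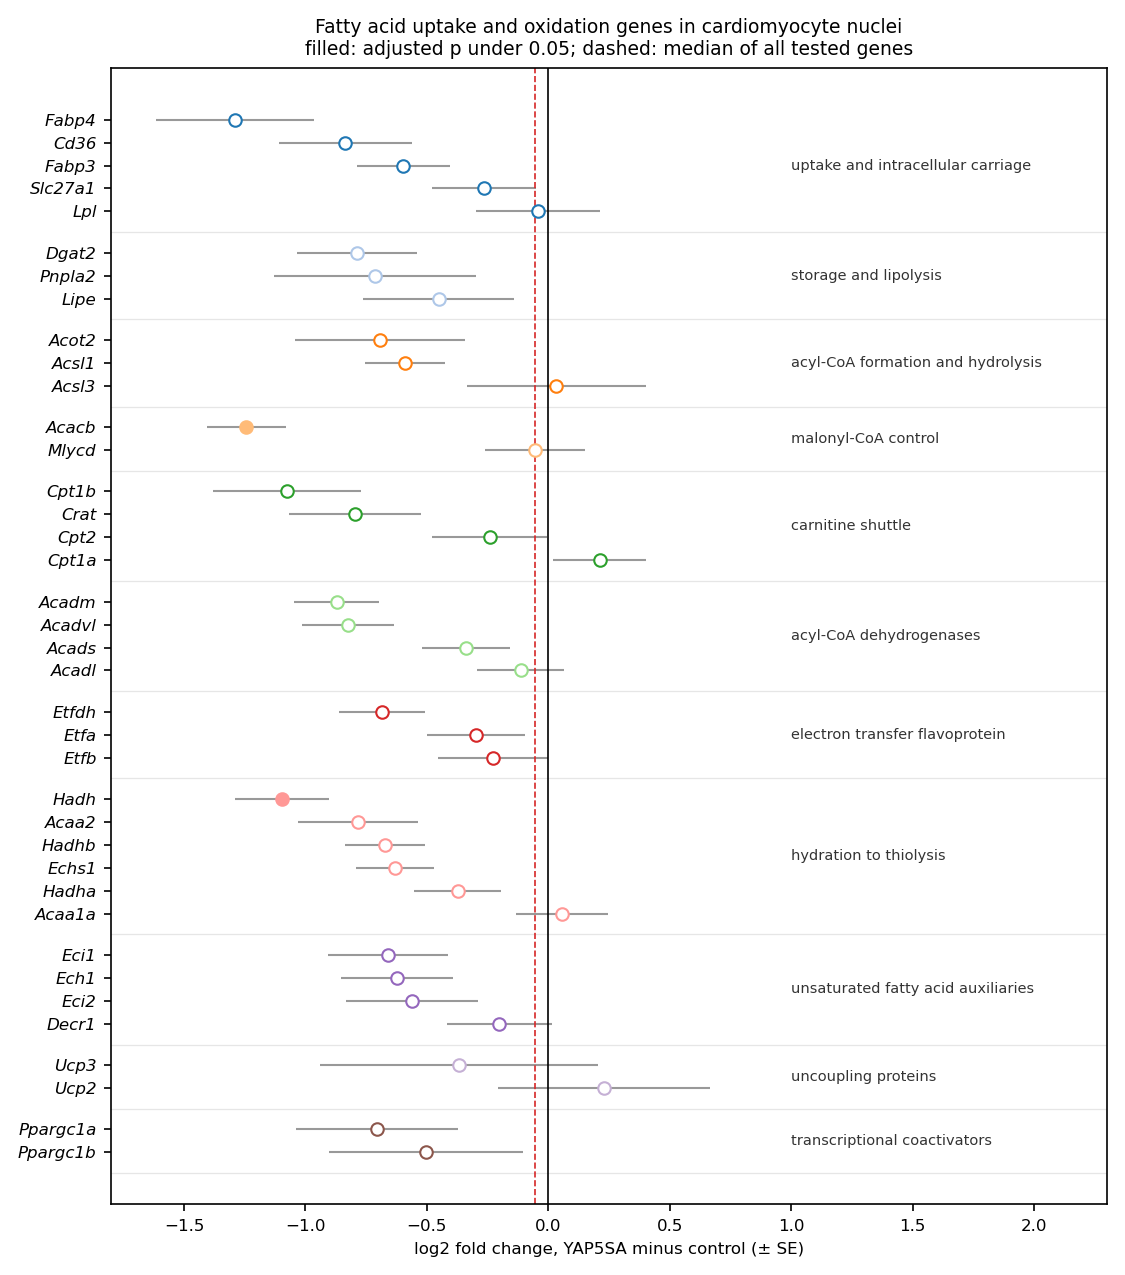
Log2 fold change (YAP5SA minus control, horizontal axis) of the 38 genes with its standard error, grouped by role down the page. Filled points (Acacb and Hadh) have an adjusted p under 0.05, the solid line marks 0 and the dashed line the median of all tested genes (-0.06); 34 of the 38 points lie left of 0.

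The pathway's level did not move evenly between libraries of a group. The YAP5SA libraries were close to each other, with a median over the genes of 3.85% for the SD as a share of the mean, against 23.0% between the control libraries. Control replicate 1 lay above control replicate 2 for 31 of the 38 genes, with a median log2 difference of 0.36. The same median was 0.36 for the endothelial, 0.49 for the macrophage and 0.23 for the fibroblast markers, and -0.60 for the cardiomyocyte markers. The part of these cell types in the difference was not tested. The median level of the 38 genes was 64.0 and 63.9 CPM in YAP5SA nuclei, and 93.0 and 85.6 CPM in control nuclei. Both YAP5SA medians were below both control medians. Together the 38 genes took 0.428% and 0.464% of all counts in the YAP5SA libraries, against 0.678% and 0.523% in the control libraries. Mitochondrially encoded RNA, of which nuclei should hold little, took 0.166% and 0.172% of counts in the YAP5SA libraries, against 0.370% and 0.223% in the control libraries. It was highest in control replicate 1, as was the share of the 38 genes, and its part in the result was not tested. Without control replicate 1 the median log2 fold change was -0.31 and without control replicate 2 it was -0.69. Of the 34 genes with a negative fold change, 8 turned positive and 9 shrank by over 1.5 times without control replicate 1, while 1 turned positive and 3 shrank without control replicate 2.

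**Figure D2:**
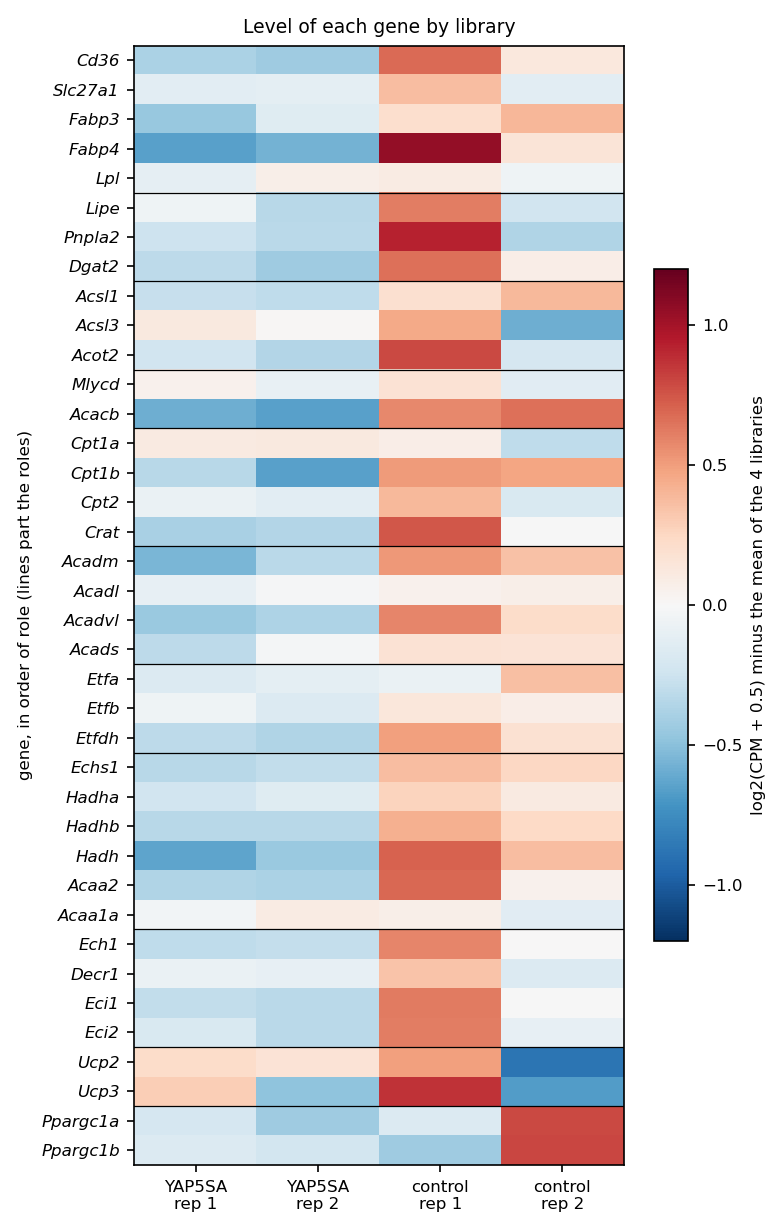
Level of each of the 38 genes in the 4 libraries, as log2(CPM + 0.5) minus the mean of the 4 libraries (red above, blue below), with horizontal lines between roles. Control replicate 1 is redder than control replicate 2 for 31 of the 38, while Ppargc1a and Ppargc1b are highest in control replicate 2.

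Genes that control the entry of fatty acids into mitochondria held the larger of the 2 called decreases. Acacb encodes acetyl-CoA carboxylase beta, the form bound to the outer mitochondrial membrane, whose product malonyl-CoA inhibits CPT1 (chromosome 5, 114146535 to 114250761, mm10). It had 91.0 and 87.3 CPM in the YAP5SA libraries, against 204 and 218 CPM in the control libraries. The groups did not overlap. Acacb averaged 89.2 ± 2.62 CPM in YAP5SA nuclei and 211 ± 9.43 CPM in control nuclei (SD, n = 2 each), and it fell (log2 fold change -1.24, SE 0.16, adjusted p = 0.0311). Mlycd, which encodes malonyl-CoA decarboxylase, the enzyme that removes malonyl-CoA, had 19.6 and 17.7 CPM in YAP5SA nuclei and 21.5 and 17.2 CPM in control nuclei. Its libraries overlapped (log2 fold change -0.05, adjusted p = 0.903). Among other settings, the call of Acacb was lost when either YAP5SA library was left out, as were most calls over all genes. Its log2 fold change stayed between -1.30 and -1.16 over all 11 alternative settings.

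Hadh encodes the mitochondrial 3-hydroxyacyl-CoA dehydrogenase that acts on medium and short chains (chromosome 3, 131233419 to 131272101). It had 42.1 and 47.9 CPM in the YAP5SA libraries, against 108 and 84.7 CPM in the control libraries. The groups did not overlap. Hadh averaged 45.0 ± 4.10 CPM in YAP5SA nuclei and 96.1 ± 16.1 CPM in control nuclei (SD, n = 2 each), and it fell (log2 fold change -1.10, SE 0.19, adjusted p = 0.0477). Among other settings, the call was lost with scaling by library totals alone and when either YAP5SA library was left out. Leaving out a YAP5SA library lost most calls over all genes too. The log2 fold changes of Hadh ran from -1.22 to -0.91 over the alternatives.

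Promoter windows of 300 bases around the RefSeq start (GRCm38.p6, the mm10 assembly) were read for the 30 of 38 genes with an entry, 34 windows in all. Those of the called genes Acacb and Hadh are shown because their RNA moved most clearly, and that of Cpt1a because it was the only gene of the 38 with both YAP5SA libraries above both controls. Capitals mark the hexamer AGGTCA, which nuclear receptors bind, and GGAATG, the core of the TEAD motif to which YAP is brought, on either strand.
Acacb, chr5:114165268-114165567, plus strand: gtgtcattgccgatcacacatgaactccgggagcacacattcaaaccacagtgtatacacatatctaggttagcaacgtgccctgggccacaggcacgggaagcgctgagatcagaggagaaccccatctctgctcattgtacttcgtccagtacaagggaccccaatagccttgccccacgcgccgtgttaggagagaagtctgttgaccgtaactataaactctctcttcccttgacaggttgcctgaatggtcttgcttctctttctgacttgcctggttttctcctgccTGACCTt
Hadh, chr3:131272052-131272351, minus strand: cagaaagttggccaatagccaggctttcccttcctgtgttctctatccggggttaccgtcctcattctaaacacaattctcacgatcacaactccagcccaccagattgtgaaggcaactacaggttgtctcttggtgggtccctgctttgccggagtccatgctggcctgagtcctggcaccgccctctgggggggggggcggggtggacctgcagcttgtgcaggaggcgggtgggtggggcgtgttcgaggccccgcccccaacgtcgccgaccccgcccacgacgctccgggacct
Cpt1a, chr19:3323051-3323350, plus strand: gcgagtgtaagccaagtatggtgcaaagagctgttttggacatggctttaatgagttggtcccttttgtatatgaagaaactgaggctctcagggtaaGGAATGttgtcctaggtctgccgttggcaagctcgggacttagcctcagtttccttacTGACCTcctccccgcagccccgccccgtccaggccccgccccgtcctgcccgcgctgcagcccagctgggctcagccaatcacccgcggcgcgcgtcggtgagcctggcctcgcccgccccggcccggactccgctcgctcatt
The windows of Acacb and Cpt1a lie inside the annotated gene spans, at starts downstream of the outermost 5′ end. That of Acacb holds 1 AGGTCA on the minus strand. That of Hadh holds neither motif, and that of Cpt1a holds 1 of each. Among the 34 windows GGAATG was in 4 (11.8%), against 14.7% of all 32851 windows, and AGGTCA in 7 (20.6%), against 16.3%. The direct repeat of PPAR sites (AGGTCA, any base, AGGTCA) and TCAAGGTCA of ERR sites, which both contain AGGTCA, were in 0 of the 34 windows, against 0.0396% and 0.423% of all. The E-box CACGTG was in 2 (5.88%), against 7.15%, and the NRF1 motif in 1, that of Etfdh (2.94%), against 0.971%. A match in a window is a description of its letters, and a missing one says only that these letters are not there.

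The carnitine shuttle moves long acyl chains across the mitochondrial membranes. Of its 4 genes among the 38, 3 had a negative fold change and 1, Cpt1a, a positive one, and 0 passed the threshold. Cpt1a, which encodes the CPT1 form of liver and of the fetal heart, had 96.9 and 97.4 CPM in the YAP5SA libraries, against 95.1 and 72.7 CPM in the control libraries. The YAP5SA libraries lay just above the higher control, by a small margin that was lost under scaling by library totals or by the upper quartile (log2 fold change 0.21, SE 0.19, adjusted p = 0.543). Cpt1b, which encodes the CPT1 form of adult muscle, had 3.71 and 2.89 CPM in the YAP5SA libraries, against 7.06 and 6.87 CPM in the control libraries. Its counts were few, from 38 to 78 per library, and the groups did not overlap (log2 fold change -1.08, SE 0.30, adjusted p = 0.116). Of the exon bases of Cpt1b 81.4% are shared with another gene model on the same strand (Gm44502), so the level of Cpt1b is uncertain. The count of Cpt1a was 26.1 and 33.8 times that of Cpt1b in the YAP5SA libraries, and 13.5 and 10.6 times in the control libraries. This ratio, which no scaling between libraries affects, was higher in both YAP5SA libraries than in either control, with a log2 difference of means of 1.31 that ran from 1.13 to 1.49 with 1 library left out.

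Crat encodes carnitine acetyltransferase, which buffers acetyl-CoA as acetylcarnitine. It had 90.4 and 92.9 CPM in the YAP5SA libraries, against 199 and 119 CPM in the control libraries, without overlap but with control libraries far apart (log2 fold change -0.80, SE 0.27, adjusted p = 0.163). Cpt2, which encodes the transferase of the inner membrane, had 30.7 and 29.7 CPM in YAP5SA nuclei and 42.7 and 28.6 CPM in control nuclei, and its groups overlapped (log2 fold change -0.24, adjusted p = 0.578). Slc25a20, which encodes the carrier that exchanges acylcarnitines for carnitine, stands outside the 38 genes and had 34.4 and 31.4 CPM in YAP5SA nuclei and 85.1 and 37.3 CPM in control nuclei (log2 fold change -0.90, adjusted p = 0.240). Slc22a5, which encodes the OCTN2 importer of carnitine, had 37.9 and 38.4 CPM in YAP5SA nuclei and 20.8 and 20.2 CPM in control nuclei. It was higher in both YAP5SA libraries and missed the threshold narrowly (log2 fold change 0.89, SE 0.16, adjusted p = 0.0501).

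Of the uptake genes, those of CD36 and the FABP carriers lay lower in YAP5SA nuclei and that of lipoprotein lipase did not. Fabp4, a carrier gene known from adipocytes, macrophages and capillary endothelium, had the most negative log2 fold change of the 38 with all 4 libraries. It had 138 and 146 CPM in the YAP5SA libraries, against 452 and 241 CPM in the control libraries. The groups did not overlap, the control libraries lay far apart, and the gene missed the threshold (log2 fold change -1.29, SE 0.32, adjusted p = 0.0922), which it passed with DESeq2 (adjusted p = 0.00782). Without control replicate 1 its log2 fold change was -0.76, less negative than that of Acacb (-1.28). Fabp3, the carrier gene of heart muscle, had 84.8 and 105 CPM in the YAP5SA libraries, against 134 and 154 CPM in the control libraries. Its groups did not overlap (log2 fold change -0.60, SE 0.19, adjusted p = 0.143). The count ratio of Fabp4 to Fabp3 was 1.62 and 1.39 in the YAP5SA libraries, against 3.38 and 1.57 in the control libraries, so that the groups overlapped in this ratio.

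Cd36, the fatty acid translocase gene expressed in heart muscle, endothelium and macrophages, had 558 and 538 CPM in the YAP5SA libraries, against 1163 and 792 CPM in the control libraries, again with no overlap (log2 fold change -0.84, SE 0.27, adjusted p = 0.150). Lpl had 1233 and 1395 CPM in YAP5SA nuclei and 1421 and 1284 CPM in control nuclei, and its libraries overlapped (log2 fold change -0.04, SE 0.26, adjusted p = 0.940). Gpihbp1, an endothelial gene whose product carries lipoprotein lipase into the capillary lumen, had 26.4 and 31.0 CPM in YAP5SA nuclei and 116 and 32.4 CPM in control nuclei (log2 fold change -1.38, adjusted p = 0.225), with control replicate 1 far above the other libraries. Slc27a1, which encodes the transport protein FATP1, was among the genes with overlapping groups (log2 fold change -0.27). Beside these stand the endothelial markers, of which 12 of 12 had a negative fold change (median -0.84), and the macrophage markers, of which 12 of 13 had a positive one (median 1.44). The 8 adipocyte markers summed to 10.1 and 12.5 CPM in YAP5SA nuclei against 7.25 and 1.59 CPM in control nuclei, and Adrb3 alone made up 8.22 and 9.64 CPM in YAP5SA nuclei and 1.81 and 0 CPM of these. Cfd, the adipsin gene, had 7 and 1 counts in the YAP5SA libraries, against 38 and 7 in the control libraries (log2 fold change -2.95, adjusted p = 0.142). Adipoq, which encodes adiponectin, had 0 and 0 counts in the YAP5SA libraries and 2 and 1 in the control libraries, and Retn, the resistin gene, had 0 in all 4, where 0 counts allow up to 3 (0.202 to 0.397 CPM). The part of endothelial cells and macrophages in the levels of Cd36, Fabp4 and Lpl was not tested.

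**Figure D3:**
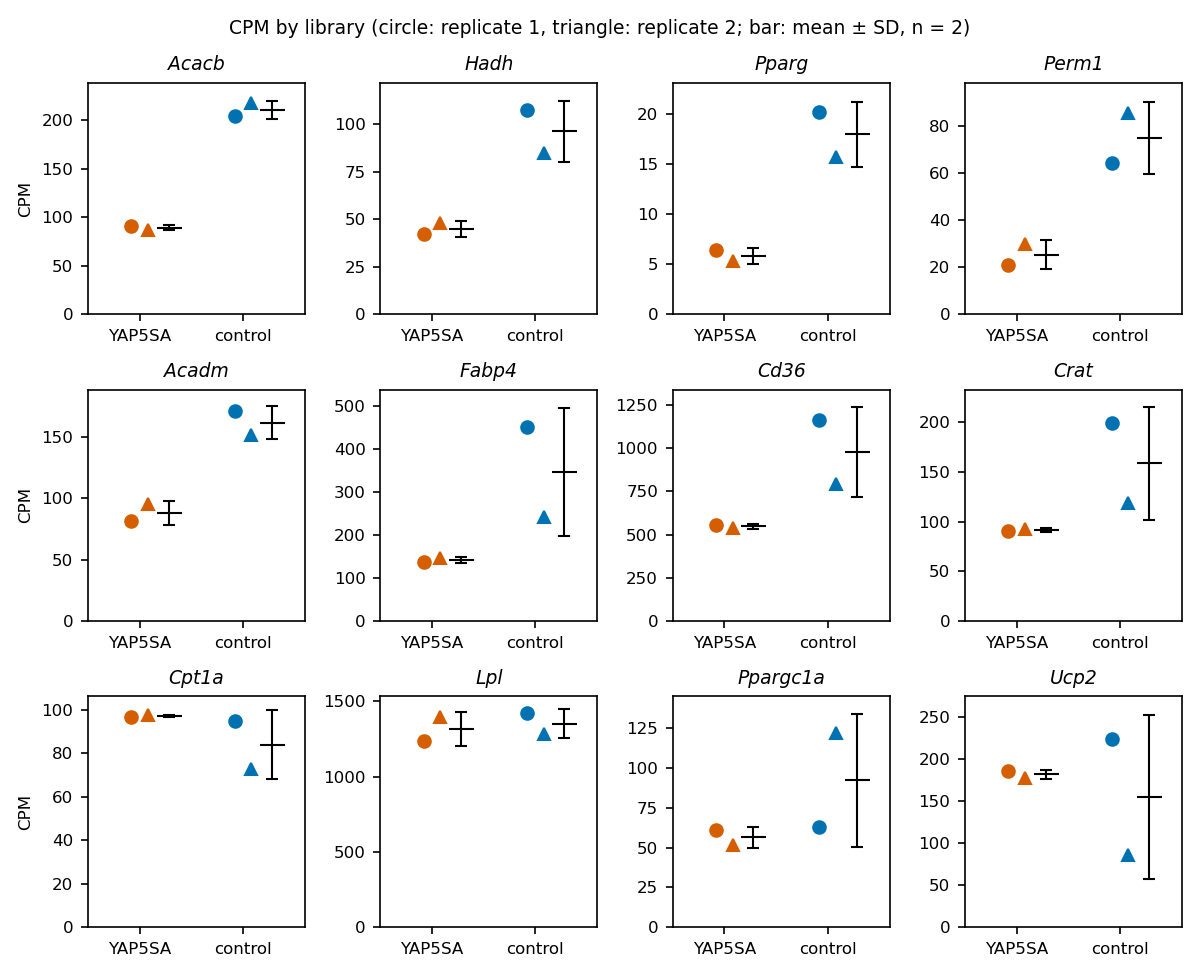
CPM of 12 genes in each library (vertical axis from 0, circles replicate 1, triangles replicate 2), with the mean ± SD of each group beside the points (n = 2). Acacb, Hadh, Pparg, Perm1 and Acadm show YAP5SA libraries well below both controls, while Lpl and Ucp2 overlap and Ppargc1a is highest in control replicate 2.

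Activation and storage genes were lower or overlapped. Acsl1, which encodes the main long-chain acyl-CoA synthetase of the heart, had 107 and 105 CPM in the YAP5SA libraries, against 148 and 170.1 CPM in the control libraries, with no overlap (log2 fold change -0.59, SE 0.17, adjusted p = 0.115). Acsl3, a synthetase gene linked to lipid droplets, had 14.9 and 13.9 CPM in the YAP5SA libraries, against 18.9 and 8.99 CPM in the control libraries. Its YAP5SA values lay between the controls (log2 fold change 0.03, adjusted p = 0.969). The count of Acsl3 was 0.139 and 0.133 times that of Acsl1 in the YAP5SA libraries, against 0.128 and 0.0528 times in the control libraries. The log2 difference of means in this ratio was 0.72, and it ran from 0.09 without control replicate 2 to 1.36 without control replicate 1. Dgat2, which encodes an enzyme of triglyceride synthesis, had 17.6 and 16.2 CPM in the YAP5SA libraries, against 34.9 and 23.3 CPM in the control libraries, below both controls (log2 fold change -0.79, SE 0.25, adjusted p = 0.141). The lipase genes Pnpla2 and Lipe and the thioesterase gene Acot2 had log2 fold changes of -0.71, -0.45 and -0.69 with adjusted p from 0.296 to 0.428. Pnpla2 had 66.8 and 63.3 CPM in YAP5SA nuclei and 151 and 61.7 CPM in control nuclei. In all 3 control replicate 1 stood well above control replicate 2, and without it the log2 fold changes were 0.08 for Pnpla2, 0.05 for Lipe and -0.09 for Acot2.

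The acyl-CoA dehydrogenases open each turn of beta-oxidation, and the members differed in how far they lay below control. Acadm, the medium-chain enzyme gene, had 81.5 and 95.2 CPM in the YAP5SA libraries, against 171 and 152 CPM in the control libraries. It was lower in both YAP5SA libraries and came close to the threshold (log2 fold change -0.87, SE 0.18, adjusted p = 0.0594). DESeq2 called it lower (adjusted p = 0.0263), as did edgeR under a minimum count of 50 (adjusted p = 0.0492). Acadvl, the very-long-chain enzyme gene, had 61.3 and 64.6 CPM in the YAP5SA libraries, against 126 and 97.3 CPM in the control libraries, also without overlap (log2 fold change -0.83, SE 0.19, adjusted p = 0.0769). Of its exon bases 42.9% lie opposite exons of Dvl2 on the other strand, and the sources used here do not give the strand setting of the counting, so its level is uncertain. Acadl, the long-chain enzyme gene, had 302 and 319 CPM in YAP5SA nuclei and 334 and 338 CPM in control nuclei. It was nearly level, with a log2 fold change of -0.11 (SE 0.18). For Acads, the short-chain enzyme gene, with 31.9 and 39.3 CPM in YAP5SA nuclei and 45.2 and 44.9 CPM in control nuclei, the log2 fold change was -0.34 (SE 0.18). The difference between members was not tested.

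Electrons from these dehydrogenases pass through the electron transfer flavoprotein to ubiquinone. Etfdh, which encodes the oxidoreductase at the end of that path, had 83.0 and 80.2 CPM in the YAP5SA libraries, against 145 and 117 CPM in the control libraries, without overlap (log2 fold change -0.69, SE 0.18, adjusted p = 0.0980). Etfa and Etfb, which encode the subunits of the flavoprotein, had log2 fold changes of -0.30 and -0.23 (adjusted p = 0.421 and 0.585), with YAP5SA libraries below both controls in each. Etfb shares 53.0% of its exon bases with another gene model on its strand and is uncertain.

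In 5 of the 6 genes of the later steps both YAP5SA libraries lay below both controls, as they did in 28.3% of all tested genes. Echs1, which encodes the short-chain enoyl-CoA hydratase, had 37.7 and 38.7 CPM in the YAP5SA libraries, against 61.8 and 56.6 CPM in the control libraries (log2 fold change -0.63, SE 0.16, adjusted p = 0.0930). Acaa2, the mitochondrial thiolase gene, had 68.3 and 67.2 CPM in the YAP5SA libraries, against 142 and 90.8 CPM in the control libraries (log2 fold change -0.78, SE 0.25, adjusted p = 0.141). Neither overlapped between groups, and neither passed the threshold. Acaa1a, which encodes a peroxisomal thiolase, had 19.7 and 21.6 CPM in YAP5SA nuclei and 21.3 and 18.4 CPM in control nuclei and overlapped (log2 fold change 0.06, adjusted p = 0.887).

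Hadha and Hadhb encode the alpha and beta subunits of the mitochondrial trifunctional protein, which carries out the last steps on long chains. They lie head to head on chromosome 5, with 85 bases between them (Hadha chromosome 5, 30118304 to 30155162, minus strand; Hadhb chromosome 5, 30155248 to 30184593, plus strand). Their promoter windows share 228 bases, and the Hadhb window is shown for that reason, with the bases between the annotated genes in capitals.
Hadhb, chr5:30155003-30155302, plus strand: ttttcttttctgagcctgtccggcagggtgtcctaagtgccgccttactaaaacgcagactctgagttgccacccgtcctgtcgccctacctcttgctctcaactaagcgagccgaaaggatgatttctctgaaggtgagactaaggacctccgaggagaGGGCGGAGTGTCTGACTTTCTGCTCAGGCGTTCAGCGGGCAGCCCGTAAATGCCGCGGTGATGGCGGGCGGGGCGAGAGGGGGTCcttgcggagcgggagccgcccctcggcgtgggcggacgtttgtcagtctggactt
Hadhb had 107 and 106 CPM in the YAP5SA libraries, against 180.2 and 159 CPM in the control libraries, with no overlap (log2 fold change -0.67, SE 0.16, adjusted p = 0.0865). Hadha had 213 and 226 CPM in YAP5SA nuclei and 300.2 and 268 CPM in control nuclei, likewise with no overlap and a smaller fold change (log2 fold change -0.37, SE 0.18, adjusted p = 0.275). Neither window held AGGTCA or GGAATG.

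Enzymes that feed unsaturated fatty acids into the cycle had a negative log2 fold change in all 4 genes with all libraries. Eci1, which encodes an enoyl-CoA isomerase of mitochondria, had 30.7 and 30.1 CPM in the YAP5SA libraries, against 58.1 and 37.5 CPM in the control libraries (log2 fold change -0.66, SE 0.25, adjusted p = 0.191). Eci2, its relative in peroxisomes and mitochondria, had 31.7 and 28.7 CPM in YAP5SA nuclei and 55.4 and 33.6 CPM in control nuclei (log2 fold change -0.56, adjusted p = 0.281). The count ratio of Eci2 to Eci1 was 1.03 and 0.955 in the YAP5SA libraries and 0.953 and 0.894 in the control libraries, so the pair kept nearly the same proportion. Ech1, which encodes a dienoyl-CoA isomerase, had 86.1 and 87.4 CPM in the YAP5SA libraries, against 159.8 and 107 CPM in the control libraries (log2 fold change -0.62, SE 0.23, adjusted p = 0.188). Decr1, the dienoyl-CoA reductase gene, overlapped between groups (log2 fold change -0.20). Without control replicate 1 the log2 fold changes were -0.30 for Eci1, -0.14 for Eci2, -0.30 for Ech1 and 0.09 for Decr1.

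The uncoupling protein genes are neighbours on chromosome 7 (Ucp3 chromosome 7, 100472990 to 100486432; Ucp2 chromosome 7, 100493337 to 100502020), and their control libraries lay far apart. Ucp2, which is widely expressed and also known from macrophages, had 186 and 178 CPM in the YAP5SA libraries, against 224 and 86.4 CPM in the control libraries. Ucp3, the form of muscle, had 11.1 and 6.23 CPM in the YAP5SA libraries, against 16.7 and 5.42 CPM in the control libraries. In each the YAP5SA libraries lay between the controls, and neither passed (log2 fold change 0.23, adjusted p = 0.792 for Ucp2; log2 fold change -0.37, adjusted p = 0.737 for Ucp3). For Ucp2 the log2 fold change was 1.08 without control replicate 1 and -0.26 without control replicate 2. The count of Ucp2 was 16.8 and 28.6 times that of Ucp3 in the YAP5SA libraries, and 13.5 and 16.0 times in the control libraries.

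The PGC-1 coactivator genes were higher in control replicate 2 than in control replicate 1, the reverse of 31 of the 38 genes. Ppargc1a, which encodes PGC-1 alpha, had 61.0 and 51.9 CPM in the YAP5SA libraries, against 62.6 and 122 CPM in the control libraries. Ppargc1b, which encodes PGC-1 beta, had 55.9 and 53.7 CPM in the YAP5SA libraries, against 46.4 and 109 CPM in the control libraries. Control replicate 2 was far above every other library in both, and the YAP5SA libraries were close to control replicate 1. Neither passed (log2 fold change -0.70, SE 0.33, adjusted p = 0.274 for Ppargc1a; log2 fold change -0.50, SE 0.40, adjusted p = 0.489 for Ppargc1b). Without control replicate 2 the log2 fold changes were -0.11 and 0.28, and without control replicate 1 they were -1.10 and -0.99. The cardiomyocyte markers showed the same order in the control pair, with a median log2 difference of -0.60 (replicate 1 minus replicate 2), and their median log2 fold change was -1.09. The count ratio of Ppargc1a to Ppargc1b was 1.09 and 0.966 in the YAP5SA libraries, against 1.35 and 1.11 in the control libraries.

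Levels can be compared between genes only per length. Per kilobase of merged exons in GENCODE M21, the highest of the 38 in control nuclei were Cd36, Fabp3, Acadl and Lpl, and the same 4 genes led in YAP5SA nuclei in another order. In CPM per kilobase, Cd36 measured 155 and 149.7 in YAP5SA nuclei and 324 and 220.5 in control nuclei. Acadl measured 151 and 159 in YAP5SA nuclei and 167 and 169 in control nuclei. Cd36 stood above Acadl in both control libraries, and in YAP5SA nuclei the libraries of both genes overlapped. Fabp3 measured 103 and 128 in YAP5SA nuclei and 162 and 187 in control nuclei, and Lpl 118 and 133 in YAP5SA nuclei and 136 and 122 in control nuclei. Cpt1b, with a mean of 0.977 CPM per kilobase in YAP5SA nuclei and 2.07 in control nuclei, was the lowest of the 38 in both groups. As 81.4% of its exon bases are shared with another gene model on the same strand, this level and rank are uncertain. Merged exons join all gene models and can be longer than the mRNA. For Fabp4 they form 1 block of 4489 bases, the whole gene span. Its means of 31.6 CPM per kilobase in YAP5SA nuclei and 77.2 in control nuclei may therefore be too low. The order of the genes thus holds for this length alone and may differ per length of mRNA. The sources used here do not say whether intronic reads were counted, so these levels per length are approximate.

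Among 19 nuclear receptors and other regulators of the pathway, 0 rose and 2 fell, with a median log2 fold change of -0.05. The test called 3.12% of all genes higher and 0.999% lower. This list and those below were chosen with earlier results of these data known. Perm1, which encodes a muscle regulator acting with PGC-1 and ERR, had 21.0 and 29.8 CPM in the YAP5SA libraries, against 64.0 and 85.4 CPM in the control libraries. Pparg, the nuclear receptor gene known from fat cells and macrophages, had 6.40 and 5.32 CPM in the YAP5SA libraries, against 20.3 and 15.7 CPM in the control libraries. Both fell, with no overlap (log2 fold change -1.56, SE 0.26, adjusted p = 0.0426 for Perm1; log2 fold change -1.62, SE 0.25, adjusted p = 0.0394 for Pparg). Ppara, the main PPAR of the heart, had 19.6 and 17.4 CPM in YAP5SA nuclei and 24.9 and 28.4 CPM in control nuclei and did not pass (log2 fold change -0.53, adjusted p = 0.174). Esrra and Esrrg, which encode ERR alpha and gamma, had log2 fold changes of -0.39 and -0.68, with control replicate 2 above the other libraries in both, as for the PGC-1 genes.

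Among the other genes of uptake, carnitine and acyl-CoA handling, 2 of 15 rose and 0 fell (median 0.03), against 3.12% and 0.999% of all genes. Angptl4, a PPAR target whose product inhibits lipoprotein lipase, had 139.8 and 130.0 CPM in the YAP5SA libraries, against 62.7 and 50.5 CPM in the control libraries, and it rose (log2 fold change 1.25, SE 0.18, adjusted p = 0.0354). Acsl5, another acyl-CoA synthetase gene, had 62.0 and 64.6 CPM in the YAP5SA libraries, against 32.2 and 34.2 CPM in the control libraries and rose (log2 fold change 0.93, SE 0.16, adjusted p = 0.0452). Acsl1 and Acsl5 therefore stood on opposite sides of 0, with no overlap in either.

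For the next 3 lists too, the test called 3.12% of all genes higher and 0.999% lower. Of 15 other oxidation genes of mitochondria and peroxisomes, 0 rose and 1 fell (median -0.34). It was Acad10, an acyl-CoA dehydrogenase family gene, with 7.35 and 6.91 CPM in the YAP5SA libraries, against 19.4 and 17.7 CPM in the control libraries (log2 fold change -1.38, SE 0.21, adjusted p = 0.0379). Of 9 genes of ketone bodies and malonyl-CoA partners, Bdh1 fell and 0 rose (median -0.16). Bdh1 encodes the dehydrogenase that opens the use of beta-hydroxybutyrate, and it had 2.49 and 3.72 CPM in the YAP5SA libraries, against 16.6 and 13.1 CPM in the control libraries (log2 fold change -2.26, SE 0.32, adjusted p = 0.0334). Acaca, which encodes the cytosolic acetyl-CoA carboxylase, had 31.7 and 36.5 CPM in YAP5SA nuclei and 46.1 and 35.0 CPM in control nuclei, with overlapping libraries (log2 fold change -0.25, adjusted p = 0.503), beside the called decrease of its relative Acacb. Of 17 lipid droplet and lipid synthesis genes, 2 fell and 0 rose (median -0.56). Plin5, a droplet coat protein gene of oxidative tissue, had 6.87 and 6.30 CPM in the YAP5SA libraries, against 26.0 and 16.0 CPM in the control libraries (log2 fold change -1.68, SE 0.30, adjusted p = 0.0485). G0s2, which encodes an inhibitor of the lipase PNPLA2, had 2.36 and 2.20 CPM in the YAP5SA libraries, against 7.15 and 12.2 CPM in the control libraries (log2 fold change -2.07, SE 0.38, adjusted p = 0.0495). Among other settings, every call of these lists was lost when either YAP5SA library was left out. Such a fit takes its spread from the control pair alone, and most calls over all genes were lost too. Scaling by the upper quartile also lost the calls of Acsl5 and G0s2, and limma-voom those of Plin5 and G0s2.

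**Figure D4:**
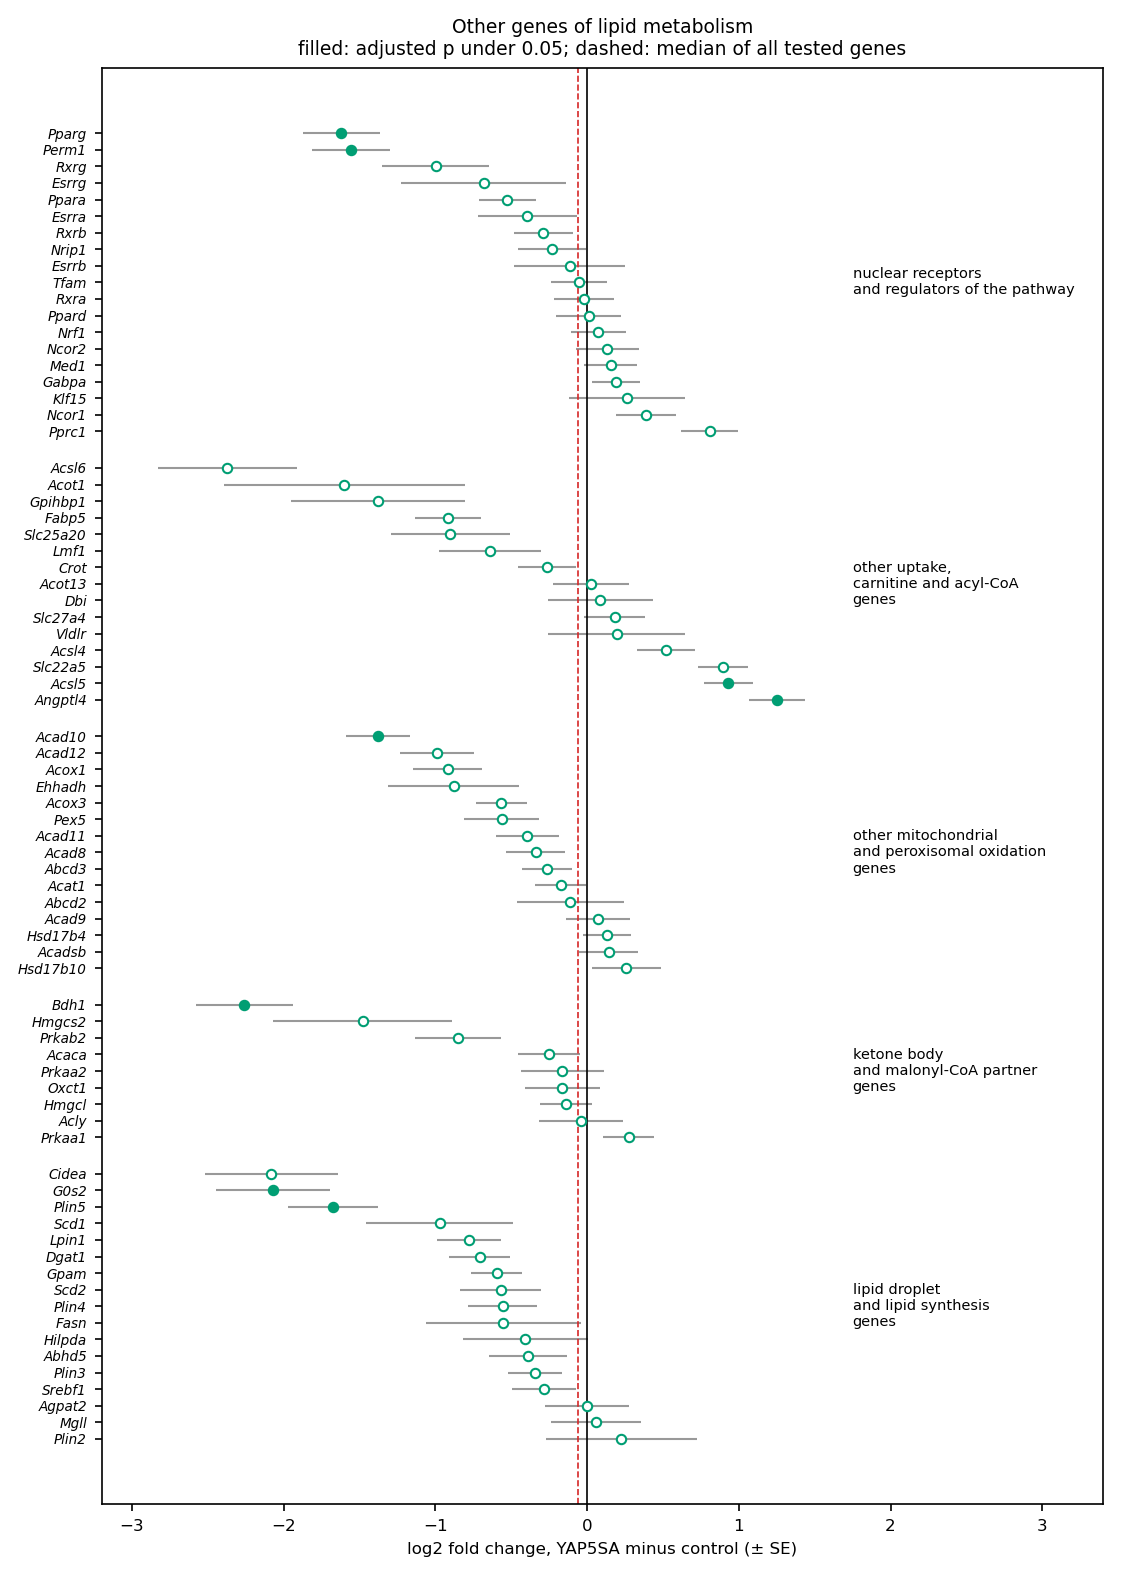
Log2 fold change (YAP5SA minus control) with its standard error for 75 other tested genes of lipid metabolism in 5 lists. Filled points have an adjusted p under 0.05: Pparg, Perm1, Acad10, Bdh1, Plin5 and G0s2 lie left of 0, and Acsl5 and Angptl4 right of it.

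The count of calls among the 38 genes depended on which libraries were used, while the direction of most genes did not. With 1 control library left out the calls were 18 lower and 3 higher (without replicate 1) or 26 lower and 0 higher (without replicate 2), where 17.4% and 18.8% of all genes were called lower and higher in the first fit and 18.6% and 19.7% in the second. The 3 higher genes were Acsl3, Cpt1a and Ucp2. With either YAP5SA library left out 0 of the 38 were called, where 0.0266% and 0.362% of all genes were lower and higher without YAP5SA replicate 1, and 0% and 0.143% without YAP5SA replicate 2. A group with 1 library left was taken to have the spread of the other group. With both libraries of each group, DESeq2 called 4 of the 38 lower (Acacb, Acadm, Fabp4 and Hadh) and 0 higher. Of all 30546 genes with any count it called 1.73% lower and 3.5% higher, and some of these genes got no adjusted p. With no filter on low counts 11 were called lower, against 5.53% lower and 5.65% higher of the same 30546 genes. These 2 shares include genes with few counts and are not like those of filtered genes. Scaling by library totals called Acacb alone, against 1.2% of 17715 genes lower and 3.71% higher. Scaling by the upper quartile called Acacb and Hadh, against 1.01% and 2.65% of 17715. A minimum count of 50 gave 3 lower (Acacb, Acadm and Hadh), against 1.53% and 3.93% of 12836 genes. Limma-voom gave Acacb and Hadh, against 0.903% and 3.12% of 17715. The log2 fold change was negative in the test above and in all 11 alternatives for 25 of the 38. Most of these alternatives used all the libraries of the test, so their signs are not independent. Over all genes 54.3% were negative in the test above, and the share negative in every fit was not counted.

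**Figure D5:**
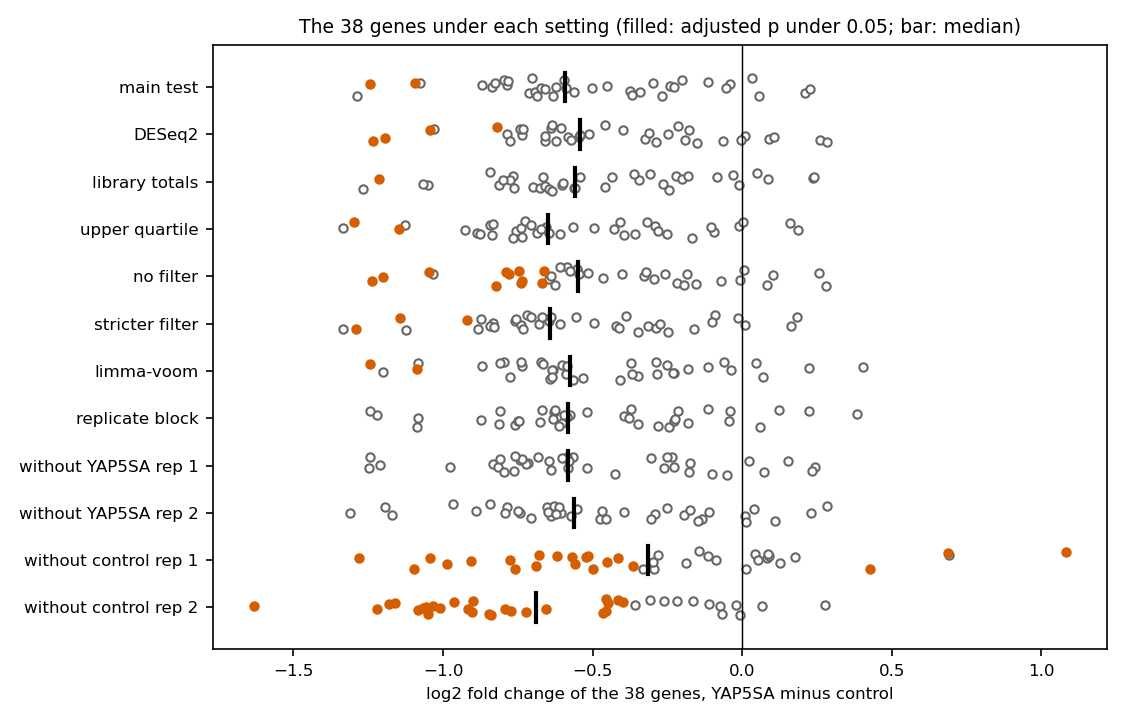
Log2 fold changes of the 38 genes (horizontal axis) under the main test and 11 alternatives, 1 per row. Filled points have an adjusted p under 0.05 and the black bar is the median, which ran from -0.69 without control replicate 2 to -0.31 without control replicate 1.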

How the data were processed

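Nuclear RNA of 2 YAP5SA and 2 control samples was analysed. Samples of ATAC-seq and of 4C-seq are not used here. The counts, as deposited by the authors, are raw whole numbers per gene symbol. Per the labels' protocols, libraries were stranded with ribosomal RNA removed and read from both ends, and reads were mapped to mm10 with STAR. For testing, DESeq2 appears in the submitters' processing notes. The sources used here do not give the counting program, its strand setting or the annotation, so overlapping genes cannot be told apart: 14 of the 38 genes share exon bases with another gene in GENCODE M21, 3 on the same strand and 11 on the other.

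Genes were kept by filterByExpr (minimum count 10), scaled by TMM and tested in edgeR 4.0.16 under R 4.3.3 (quasi-likelihood F test), without a replicate block, adjusted by Benjamini-Hochberg over all tested genes. The SE was derived from the log2 fold change and its F statistic. CPM uses TMM-scaled totals. Count ratios of gene pairs had 0.5 added to each count on the log2 scale. The test was first tested on simulated data that had the same spread in both groups. That run cannot show how the test does where the spread is unequal, as it is here. Alternatives were DESeq2 1.42.0, limma-voom (limma 3.58.1), library totals, upper quartile scaling, no filter, a minimum count of 50, a replicate block and each library left out. Replicates differed by more than sampling noise, with a chi-square per gene of 15.2 between YAP5SA and 61.9 between control libraries. A count of 0 allows 3 counts, and such floors cover counting error only. Genes printed with every library were those past the threshold, those with an unadjusted p under 0.05 and no overlap, and the members of 6 paralog pairs. The genes and lists were chosen with earlier results of these data known. Promoter sequences are from RefSeq.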

Additional observations from a re-analysis of the deposited data

How the results depend on the processing

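Over all genes 553 were higher and 177 lower. DESeq2 called 1069 and 527, and no filter on low counts 1727 and 1689. With 1 library left out the counts ran from 27 to 3749 higher and from 0 to 3554 lower. Of the 38 fatty acid genes 2 were lower in the main test, 4 with DESeq2, 1 with library totals, 11 with no filter, 3 with the stricter filter (within 1.5 times) and from 0 to 26 with 1 library left out; 0 were higher, and from 0 to 3 with 1 library left out. The median log2 fold change of the 38 ran from -0.69 to -0.31 with 1 library left out. The number above both controls was 1, 0 with library totals or upper quartile scaling, and from 1 to 9 with 1 library left out.

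The replicate numbers were not stated to mark shared animals or days, and deviations of same-numbered libraries correlated at -0.1001. With the replicate block 321 genes were higher and 112 lower, and 0 of the 38 were called. Acacb (adjusted p = 0.0550) and Hadh (adjusted p = 0.0786) lost their calls under the block, as did Pparg, Acsl5, Acad10, Plin5 and G0s2. In the lists of other lipid genes the block left 1 higher gene of uptake and carnitine, 1 lower regulator, and 0 lower oxidation or lipid droplet genes. With crossed numbers, chosen after seeing the data, 328 were higher and 103 lower, with 1 of the 38 lower.

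Calls of the other lipid lists also moved. For regulators there was 1 higher gene with DESeq2 or no filter, and from 0 to 3 higher and 0 to 6 lower with 1 library left out. For uptake and carnitine genes there was 1 lower with DESeq2, 4 lower with no filter and 1 higher with upper quartile scaling, and from 0 to 5 in each direction with 1 library left out. For oxidation genes there were 2 lower with DESeq2, 3 with no filter, and from 0 to 2 higher and 0 to 6 lower. For ketone genes there were 3 lower with no filter, and from 0 to 2 higher and 0 to 5 lower. For lipid droplet genes there were 5 lower with no filter, 1 with the upper quartile and 0 with limma-voom, and from 0 to 3 higher and 0 to 14 lower.

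Some genes changed sign, among them Pnpla2, Ppargc1b, Lipe and Ucp3, which were not near 0 with all libraries. Lpl was at 0.01 with DESeq2 and with no filter, and Acsl3 at -0.01 with the upper quartile and with the stricter filter. With 1 library left out the log2 fold changes ran from -0.46 to 0.01 for Slc27a1, from -0.11 to 0.07 for Lpl, from -0.77 to 0.05 for Lipe, from -1.18 to 0.08 for Pnpla2, from -0.17 to 0.13 for Mlycd, from -0.46 to 0.09 for Cpt2, from -0.40 to 0.09 for Decr1, from -0.90 to 0.69 for Ucp3, from -0.36 to 0.69 for Acsl3, from -0.01 to 0.18 for Acaa1a, from -0.26 to 1.08 for Ucp2 and from -0.99 to 0.28 for Ppargc1b. The cause of these changes was not tested.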

Other observations

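Of the 8 adipocyte markers, 3 had enough counts to be tested, and they did not share a direction. Adrb3, which encodes the beta-3 adrenergic receptor, Lep, the leptin gene, and Cfd were singled out after their values were seen. Adrb3 had 122 and 127 counts in the YAP5SA libraries, against 20 and 0 in the control libraries (log2 fold change 3.14, SE 0.93, adjusted p = 0.126). Lep had 15 and 17 counts in the YAP5SA libraries, against 0 and 0 in the control libraries (adjusted p = 0.0551). Cfd, with 7 and 1 counts in the YAP5SA libraries against 38 and 7 in the control libraries, had a negative fold change (log2 fold change -2.95, SE 0.94, adjusted p = 0.142). None of the 3 passed the threshold in edgeR with all 4 libraries, TMM scaling and the filter on low counts. With no filter edgeR called all 3 (adjusted p = 0.00025 for Lep, 2.36e-11 for Adrb3 and 0.000429 for Cfd), and with library totals it called Lep (adjusted p = 0.0469). With the other tools Lep had an adjusted p of 0.0295 (DESeq2) and 0.0327 (limma-voom), Adrb3 of 0.462 and 0.101, and Cfd of 0.106 and 0.163.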
